A study of Mus musculus with 6 samples.

Results

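The genes described here encode 10 subunits of SWI/SNF, the chromatin remodelling complexes also called BAF and PBAF: Arid1a, Arid1b, Arid2, Smarca2, Smarca4, Smarcb1, Smarcc1, Smarcc2, Smarcd2 and Pbrm1. They were taken by symbol from the 54532 Ensembl genes of the deposited files, and all 10 were found and passed the count filter. The study profiled RNA of bone marrow LSK cells, a gate on cells that lack lineage markers and carry Sca-1 and c-Kit, which is enriched for blood stem cells and early progenitors. All 6 libraries came from males (the Y of the genotype) with the Phf6fl-R274X allele, named for a floxed Phf6, a gene on the X chromosome, and for the R274X mutation. In 3 libraries this allele stood alone (floxed libraries), and in 3 it was combined with Vav1-Cre (Vav1-Cre libraries), in which the Vav1 promoter drives Cre recombinase in blood cells. The floxed libraries carried no Cre, so Cre and the recombined allele cannot be told apart in this comparison. Age was not given, and nothing in the labels says whether each library is its own animal. The p-values therefore rest on library-to-library spread, which may be technical.

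SWI/SNF complexes use the energy of ATP to slide or evict nucleosomes, which opens or closes regulatory DNA to transcription factors. Each complex holds a single ATPase, SMARCA4 (BRG1) or SMARCA2 (BRM). In the BAF and PBAF forms it is joined to a core of SMARCC, SMARCD, SMARCB1 and SMARCE1 proteins. ARID1A or ARID1B marks the BAF form, while ARID2 and PBRM1 mark the PBAF form. Several of these subunits are needed for normal blood formation, and genes of the complex are recurrently mutated in human cancers. Phf6 encodes a nuclear PHD finger protein.

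Phf6 RNA was checked first. Its level was 4.54, 4.2 and 4.81 FPKM in floxed 1, 2 and 3 and 1.21, 1.47 and 1.19 FPKM in Vav1-Cre 1, 2 and 3 (FPKM is a read count scaled by gene length and library size). The groups did not overlap, and the level was 3.51-fold lower in the Vav1-Cre libraries (edgeR adjusted p = 6.67e-06). Total counts ran from 15406314 to 18106065 per library. Kit, the receptor of the gate, and Ly6a, which encodes Sca-1, were present in every group, at 158 ± 12.8 and 142 ± 5.07 CPM in the floxed and 96.7 ± 14.8 and 247 ± 15.6 CPM in the Vav1-Cre libraries (SD, n = 3 each; CPM is a count scaled by library size with TMM factors). Immunoglobulin genes held 0.65%, 0.29% and 1.18% of counts in the floxed and 6.85%, 7.95% and 4.45% in the Vav1-Cre libraries. The share was thus lowest in Vav1-Cre 3 among the Vav1-Cre libraries and higher in all of them than in any floxed library.

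In short, the ATPase gene Smarca4 was higher and its paralog Smarca2 lower in the Vav1-Cre libraries, and Arid1a was lower. Smarcd2 was higher and Arid2 lower by smaller amounts. The other 5 members, Arid1b, Smarcb1, Smarcc1, Smarcc2 and Pbrm1, did not pass the threshold, an adjusted p under 0.05 in edgeR's quasi-likelihood test with Benjamini-Hochberg adjustment over 14608 tested genes. So 5 of 10 members were called, 2 higher and 3 lower. Of all tested genes 17.9% were called, 10.1% higher and 7.89% lower, and of the 4522 genes at least as abundant as the least abundant member 24.9% were called. The members' median log2 fold change was -0.10, against -0.02 over all tested genes and 0.06 over those 4522 genes. For 8 of 10 members the floxed and Vav1-Cre CPM values were fully apart, against 37.2% of all tested genes. That share was not computed for the 4522 genes of like or higher abundance.

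The upstream sequences of the genes with the 3 smallest adjusted p-values are shown because these genes went in different directions in the same libraries. They come from RefSeq on GRCm38.p6 and are printed up to the first base of the gene in the GENCODE M21 annotation, 5′ to 3′ on the strand of the gene. Capitals mark GGGCGG or its reverse complement, the core motif of SP and KLF factors. The windows lie at chr4:133756770-133757019 on the minus strand for Arid1a (250 bases), at chr19:26604910-26605049 on the plus strand for Smarca2 (140 bases) and at chr9:21615919-21616168 on the plus strand for Smarca4 (250 bases).
Arid1a: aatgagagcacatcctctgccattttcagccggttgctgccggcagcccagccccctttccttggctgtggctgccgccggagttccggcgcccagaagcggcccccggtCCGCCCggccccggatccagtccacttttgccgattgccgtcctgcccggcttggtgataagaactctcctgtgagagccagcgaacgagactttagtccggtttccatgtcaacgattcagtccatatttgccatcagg
Smarca2: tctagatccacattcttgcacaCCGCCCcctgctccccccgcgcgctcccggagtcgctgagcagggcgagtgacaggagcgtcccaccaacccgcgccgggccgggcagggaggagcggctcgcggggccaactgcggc
Smarca4: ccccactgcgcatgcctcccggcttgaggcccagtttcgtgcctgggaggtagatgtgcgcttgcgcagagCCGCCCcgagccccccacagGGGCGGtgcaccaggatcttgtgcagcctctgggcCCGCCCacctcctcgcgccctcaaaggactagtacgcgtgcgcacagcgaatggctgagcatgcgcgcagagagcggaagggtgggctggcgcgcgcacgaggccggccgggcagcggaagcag

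The upstream sequences of Arid1a (250 bases) and Smarca2 (140 bases) each held 1 match, and that of Smarca4 (250 bases) held 3. RefSeq windows of 300 bases (250 before to 50 after a start) were found for 9 of the 10 members, as 10 windows because Arid1a has a pair of them. All 10 windows held GGGCGG on either strand, as did 35.7% of the 32851 windows of all genes. Matches numbered 1 and 7 in the windows of Arid1a, 2 in that of Smarca2 and 3 in that of Smarca4. The ETS motif CCGGAAG was in 2 of the 10, those of Smarcc1 and Smarca2 (8.86% of all windows), and the E2F motif TTTNNCGC was in 1, a window of Arid1a (5.17%). The NF-Y motif CCAAT was in none of the 10 (37.4%). These motifs were searched on both strands, and none contains another. CpG dinucleotides numbered from 22 to 48 in 9 of the windows and 4 in that of Smarcd2, against a median of 7 over all windows. Some windows lie inside the gene as M21 draws it. That of Smarcd2 ends at 106267882, while its gene begins at 106272972 on the minus strand. That of Smarcc1 begins at 110131774, while its gene begins at 110117708 on the plus strand. The window of Arid1b and the Arid1a window with the E2F motif are internal too. A match describes the letters of the window only. Members that rose and members that fell both had the GGGCGG core.

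Smarca4 encodes BRG1, the main ATPase of the complex in many tissues. It lies on chromosome 9 at 21616169 to 21704230 of GRCm38 (plus strand, ENSMUSG00000032187). Its level was 22.27, 22.05 and 24.24 FPKM in floxed 1, 2 and 3 and 34.27, 36.32 and 27.42 FPKM in Vav1-Cre 1, 2 and 3. All Vav1-Cre libraries were above all floxed libraries, with Vav1-Cre 3 nearest to them. The mean was 22.9 ± 1.20 FPKM in the floxed and 32.7 ± 4.66 FPKM in the Vav1-Cre libraries (SD, n = 3 each). It rose 1.42-fold, a log2 change of 0.51 (SE 0.0989, edgeR adjusted p = 0.00521), and the gene had 2656 to 3567 counts per library.

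Smarca2 encodes BRM, the alternative ATPase. It lies on chromosome 19 at 26605050 to 26778322 of GRCm38 (plus strand, ENSMUSG00000024921). Its level was 4.47, 4.51 and 4.28 FPKM in floxed 1, 2 and 3 and 3.16, 3.25 and 3.6 FPKM in Vav1-Cre 1, 2 and 3. All Vav1-Cre libraries were below all floxed libraries, and Vav1-Cre 3 was again nearest to them. The mean went from 4.42 ± 0.122 to 3.34 ± 0.233 FPKM (SD, n = 3 each). It fell 1.33-fold, a log2 change of -0.41 (SE 0.0815, edgeR adjusted p = 0.00486), and the gene had 701 to 1219 counts per library.

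**Figure D1:**
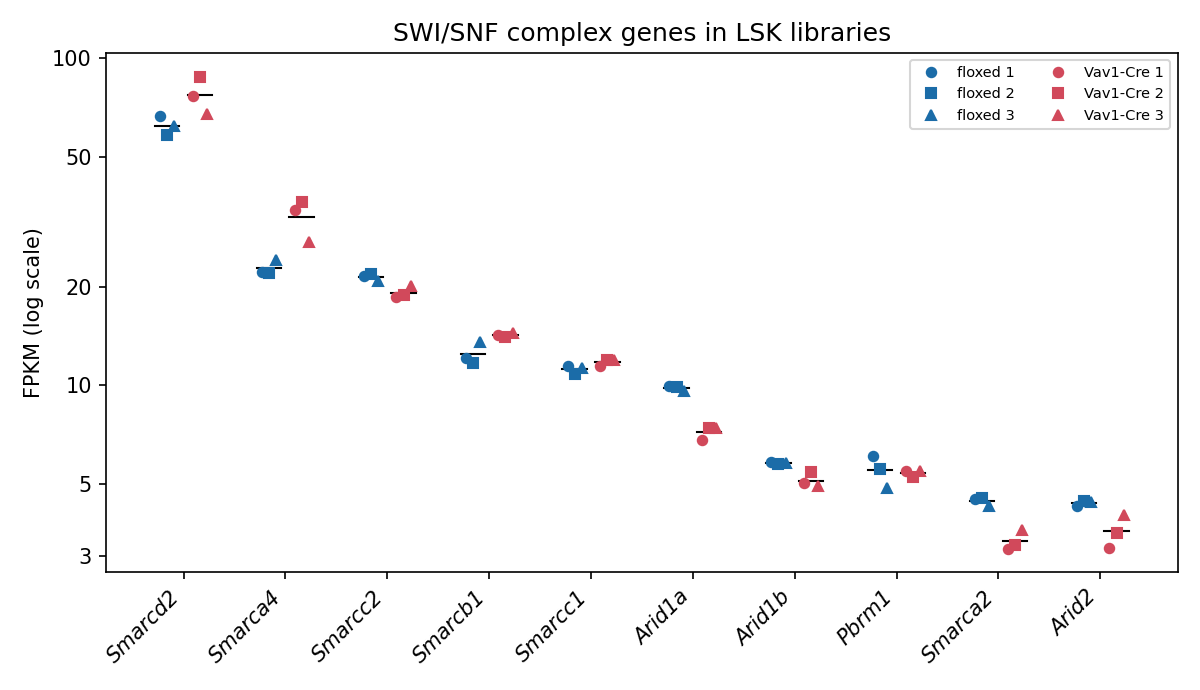
FPKM (log scale) of the 10 members, ordered by their floxed mean, with 1 point per library, shapes for replicates 1 to 3, blue for floxed, red for Vav1-Cre and a black line for the group mean. Smarca4 and Smarcd2 are higher and Arid1a, Smarca2 and Arid2 lower in the Vav1-Cre libraries, while the points of Smarcc1 and Pbrm1 overlap.

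Since a complex holds either ATPase and not both, their levels were also set against each other per length. Smarca2 made up 16.7%, 17.0% and 15% of the summed FPKM of Smarca2 and Smarca4 in the floxed libraries and 8.4%, 8.2% and 11.6% in the Vav1-Cre libraries. The share was lower in each Vav1-Cre library than in any floxed library, by a mean of -6.82 percentage points (16.2 ± 1.07% against 9.43 ± 1.90%, SD, n = 3 each). Smarca4 exceeded Smarca2 4.98-, 4.89- and 5.66-fold in the floxed and 10.8-, 11.2- and 7.61-fold in the Vav1-Cre libraries. The exact two-sided permutation p was 0.1, the smallest that 3 against 3 libraries allow, and 0.1 after Benjamini-Hochberg adjustment over the 3 pairs compared in this way. The summed FPKM of the pair was 26.7, 26.6 and 28.5 in the floxed and 37.4, 39.6 and 31.0 in the Vav1-Cre libraries. FPKM here divides by the merged exons of a gene, 14269 bases for Smarca2 and 6475 for Smarca4. The size of these ratios and shares depends on those lengths, and the transcripts in use were not examined. In CPM, not per length, the means of Smarca4 and Smarca2 were 149 and 63.7 in the floxed libraries. They were 212 and 47.8 in the Vav1-Cre libraries. RNA shares are not shares of assembled complexes, which were not measured.

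Arid1a encodes the large DNA-binding subunit of BAF and had the smallest p-value of the members. It lies on chromosome 4 at 133679008 to 133756769 of GRCm38 (minus strand, ENSMUSG00000007880). Its level was 9.95, 9.89 and 9.58 FPKM in floxed 1, 2 and 3 and 6.80, 7.39 and 7.39 FPKM in Vav1-Cre 1, 2 and 3. The spread within each group was small beside the distance between them. The mean went from 9.81 ± 0.202 to 7.20 ± 0.340 FPKM (SD, n = 3 each). It fell 1.37-fold, a log2 change of -0.46 (SE 0.0704, edgeR adjusted p = 0.00133), and the gene had 1213 to 2174 counts per library.

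Arid1b, the paralog that takes the same place in BAF, was at 5.81, 5.76 and 5.78 FPKM in the floxed and 5.01, 5.42 and 4.90 FPKM in the Vav1-Cre libraries. The groups did not overlap, but the gene did not pass (log2 fold change -0.19, SE 0.074, edgeR adjusted p = 0.0993). Arid1b therefore made up 37.1 ± 0.481% of the summed FPKM of Arid1a and Arid1b in the floxed and 41.5 ± 1.43% in the Vav1-Cre libraries (SD, n = 3 each). This share was higher in all 3 Vav1-Cre libraries, and the two-sided exact permutation test gave p = 0.1, its lower limit here. The summed FPKM of the pair was 15.8, 15.7 and 15.4 in the floxed and 11.8, 12.8 and 12.3 in the Vav1-Cre libraries, so that RNA for the BAF-specific ARID subunits was lower as a sum.

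Arid2 and Pbrm1 encode the subunits that set PBAF apart, a large ARID protein and the multi-bromodomain protein BAF180. Arid2 was at 4.28, 4.43 and 4.4 FPKM in the floxed and 3.18, 3.54 and 4.02 FPKM in the Vav1-Cre libraries, from 531 to 900 counts. All Vav1-Cre values were lower, with Vav1-Cre 3 nearest to the floxed libraries (log2 fold change -0.29, SE 0.0951, edgeR adjusted p = 0.0487). The call was lost when any of floxed 1, floxed 2, floxed 3, Vav1-Cre 1 or Vav1-Cre 2 was left out (adjusted p = 0.104, 0.136, 0.0991, 0.204 and 0.137). Arid2 also missed the threshold with RLE scaling (0.0561), DESeq2 (0.0795), limma-voom (0.0585) and edgeR without its robust option (0.0667), and it was called in 5 of 19 alternatives. Pbrm1 was at 6.07, 5.54 and 4.84 FPKM in the floxed and 5.46, 5.24 and 5.48 FPKM in the Vav1-Cre libraries. Its groups overlapped, and the log2 fold change of -0.03 (SE 0.0939, edgeR adjusted p = 0.842) was of the opposite sign, 0.03, without floxed 1. Among the 3 ARID genes, Arid2 held 21.9 ± 0.480% of the summed FPKM in the floxed and 22.5 ± 1.86% in the Vav1-Cre libraries (SD, n = 3 each), while Arid1a went from 49.1 ± 0.612% to 45.3 ± 0.074%.

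**Figure D2:**
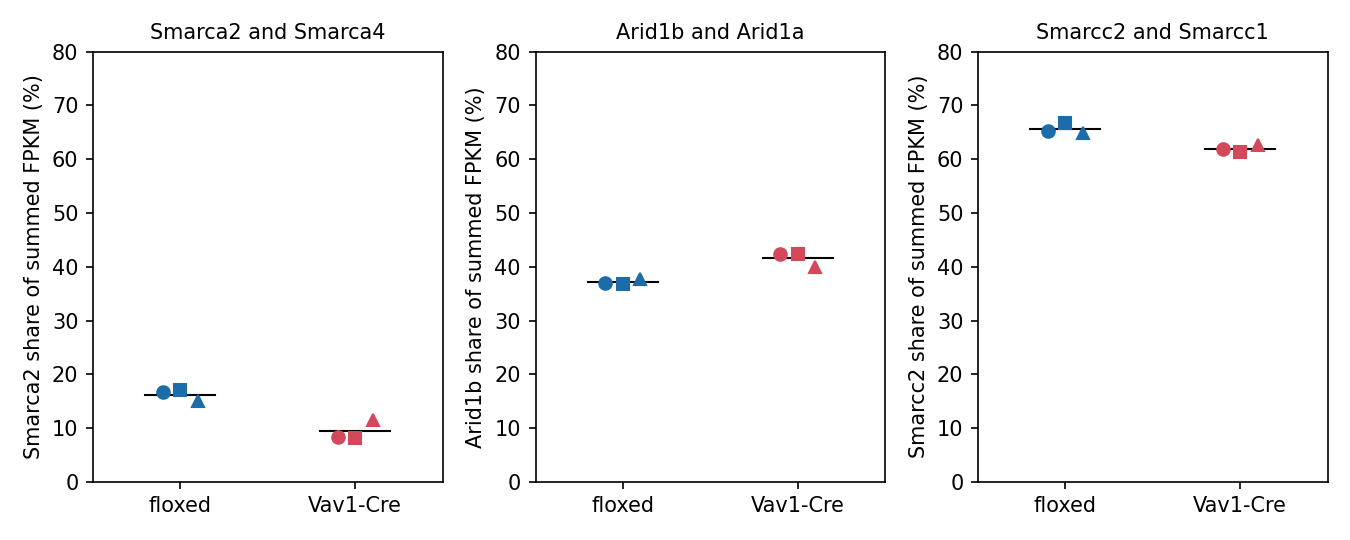
Share (percent) of the summed FPKM of a paralog pair held by Smarca2, Arid1b or Smarcc2, with 1 point per library (shapes for replicates 1 to 3) and a line for the group mean. The floxed and Vav1-Cre points do not overlap in any panel, and the widest gap relative to its level is that of Smarca2, at 16.2% against 9.43%.

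Of the core scaffold, Smarcc1, Smarcc2 and Smarcb1 did not pass. Smarcc1 encodes BAF155 and Smarcc2 encodes BAF170, a pair that forms the dimer on which the complex is built. Smarcc1 was at 11.45, 10.86 and 11.27 FPKM in the floxed and 11.43, 11.94 and 11.93 FPKM in the Vav1-Cre libraries, and the groups overlapped (log2 fold change 0.06, SE 0.0677, edgeR adjusted p = 0.561). Smarcc2 was at 21.53, 21.88 and 20.81 FPKM in the floxed and 18.61, 18.88 and 20.08 FPKM in the Vav1-Cre libraries, without overlap but also without a call (log2 fold change -0.17, SE 0.0697, edgeR adjusted p = 0.118). The share of Smarcc2 in the pair was 65.7 ± 1.03% in the floxed and 62.0 ± 0.732% in the Vav1-Cre libraries (SD, n = 3 each; two-sided exact permutation test, p = 0.1, its lower limit here). Smarcb1 encodes SNF5, a core subunit and tumour suppressor, and was at 12.15, 11.68 and 13.58 FPKM in the floxed and 14.24, 14.07 and 14.48 FPKM in the Vav1-Cre libraries. All its Vav1-Cre values were higher, by less than the test could call (log2 fold change 0.19, SE 0.0743, edgeR adjusted p = 0.102).

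Smarcd2 encodes BAF60b, the SMARCD subunit that granulocyte development depends on. Its level was 66.46, 58.28 and 62.04 FPKM in the floxed and 76.85, 88.02 and 67.46 FPKM in the Vav1-Cre libraries, with Vav1-Cre 3 just above floxed 1. The mean went from 62.3 ± 4.09 to 77.4 ± 10.3 FPKM (SD, n = 3 each), a log2 fold change of 0.31 (SE 0.0962, edgeR adjusted p = 0.0440). The call was lost without floxed 1, floxed 2, floxed 3, Vav1-Cre 1 or Vav1-Cre 2 (adjusted p = 0.0713, 0.175, 0.114, 0.125 and 0.194), and under quantile normalization of FPKM the log2 fold change was 0.03 (limma adjusted p = 0.862). Smarcd2 also missed the threshold with upper-quartile scaling (0.0726), limma-voom (0.0752) and edgeR without its robust option (0.0781), and it was called in 7 of 19 alternatives. Its relatives Smarcd1 and Smarcd3, the alternatives at the same place in the complex, did not pass. Smarcd1 was at 10.6 ± 0.151 and 9.83 ± 0.419 FPKM, and Smarcd3 at 0.293 ± 0.00593 and 0.2 ± 0.0781 FPKM in the floxed and Vav1-Cre libraries (SD, n = 3 each). Smarcd3 shares 48.2% of its exonic bases with Chpf2 on the opposite strand, and whether reads were counted by strand is not known. Smarcd2 was thus the SMARCD gene with the highest FPKM in both groups.

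The order of the members by FPKM was nearly the same in both groups. In the floxed libraries it ran Smarcd2, Smarca4, Smarcc2, Smarcb1, Smarcc1, Arid1a, Arid1b, Pbrm1, Smarca2 and Arid2. Neighbours in this order did not overlap, except Arid1b with Pbrm1 and Smarca2 with Arid2. In the Vav1-Cre libraries Pbrm1 stood above Arid1b and Arid2 above Smarca2, and the same pairs overlapped. Both orders depend on the merged exon lengths behind FPKM, from 3589 bases for Smarcd2 to 14269 for Smarca2. The spread between libraries does not measure the effect of these lengths. The levels of the 10 genes summed to 164.4, 154.9 and 160.8 FPKM in the floxed and 179.0, 194.1 and 166.8 FPKM in the Vav1-Cre libraries. Without Smarcd2, the most abundant member, the sums were 98.0, 96.6 and 98.8 FPKM against 102.2, 106.0 and 99.3 FPKM.

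Spread within the groups differed between members. In the Vav1-Cre libraries the coefficient of variation of FPKM was 14.3% for Smarca4, 13.3% for Smarcd2 and 11.7% for Arid2, against a median of 6.72% over the 4522 genes of like or higher abundance. In each of these 3, Vav1-Cre 3 was the Vav1-Cre library nearest to the floxed ones. Smarcb1, Smarcc1 and Pbrm1 varied by 1.46%, 2.47% and 2.49% in the same libraries. In the floxed libraries the highest value was 11.2% for Pbrm1 and the lowest 0.42% for Arid1b, against a median of 5.82%.

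The other genes of the complex gave a list of 21 subunits, of which 19 passed the count filter. Of these, 5 rose in edgeR's test and 14 did not pass, with a median log2 fold change of -0.03. The share called was 26.3%, against 17.9% of all tested genes. No subunit of this list was called lower by edgeR with the count filter and all libraries, by DESeq2 or by limma-voom, while 2, 1 and 2 were lower at an unadjusted p under 0.05. Without a count filter edgeR called 4 of 21 higher and 1, Bicra, lower. Actl6b and Dpf1, known as subunits of the neuronal form, had at most 3 and 11 counts in any library and were not tested. Bcl7a, a small accessory subunit, was at 3.45, 3.84 and 4.6 FPKM in the floxed and 7.70, 8.04 and 5.09 FPKM in the Vav1-Cre libraries (log2 fold change 0.80, SE 0.203, edgeR adjusted p = 0.0453). Bcl11b, a transcription factor of T cells that associates with the complex, rose 4.33-fold from 8, 15 and 2 to 37, 17 and 35 counts (log2 fold change 2.11, edgeR adjusted p = 0.0223). At these low counts the log2 fold change was 2.82 without floxed 2 and 1.65 without floxed 3. The T cell markers Cd3d, Cd3e, Cd3g and Cd8a rose in the same comparison (log2 fold changes 1.51, 2.43, 2.15 and 1.33). Nkg7, of the same list of T and NK cell markers, fell. The part of T cells in the Bcl11b result was not tested. Smarce1 (BAF57) was 1.22-fold higher (adjusted p = 0.0434), Actl6a (BAF53A) 1.18-fold (0.0457) and Actb, the actin subunit, 1.24-fold (0.0252). Actb has many processed pseudogenes, which makes its read assignment uncertain, and Actl6a shares 11.6% of its exonic bases with Mrpl47 on the opposite strand. Of the 5, none kept the call when floxed 1 or Vav1-Cre 1 was left out, where edgeR called 0 of the 19 (7 and 6 at an unadjusted p under 0.05). It was 1 without floxed 2, 2 without floxed 3, 3 without Vav1-Cre 2 (2 higher and Bicra lower) and 4 without Vav1-Cre 3.

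**Figure D3:**
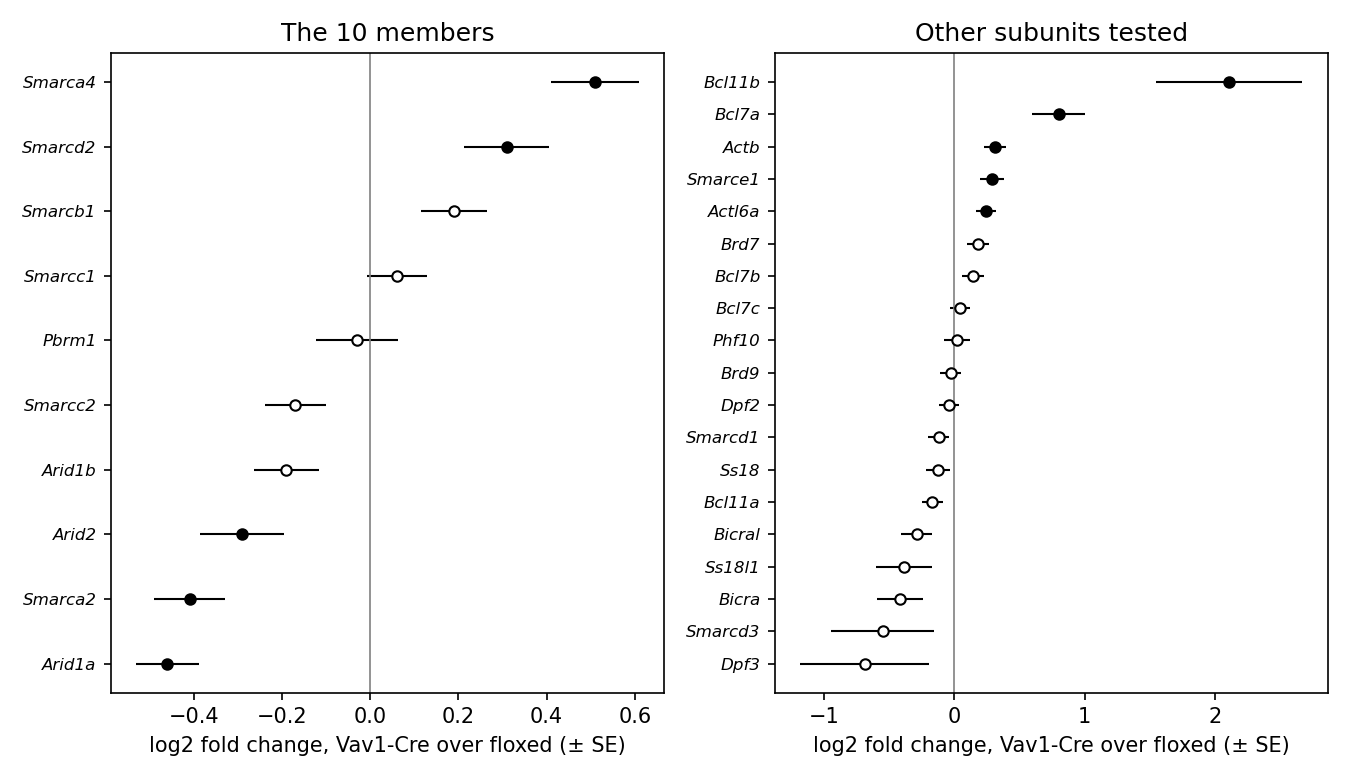
Log2 fold change of Vav1-Cre over floxed (edgeR, bars give the SE) for the 10 members and for the 19 other subunits tested, filled where the adjusted p was under 0.05. Called members lie on both sides of 0, from -0.46 for Arid1a to 0.51 for Smarca4, and the 5 called among the other subunits are all above 0.

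The remaining subunits described here, chosen for their place in the complex after their values were seen, did not pass. The PBAF subunits Phf10 and Brd7 were at 8.59 ± 0.8 and 13.4 ± 1.02 FPKM in the floxed and 8.78 ± 0.877 and 15.3 ± 0.991 FPKM in the Vav1-Cre libraries. Brd9, Bicra and Bicral mark the non-canonical form of the complex, and their log2 fold changes were -0.03, -0.42 and -0.29 (edgeR adjusted p = 0.819, 0.121 and 0.114). Dpf2 and Ss18, which belong to BAF, stood at -0.04 and -0.13 (adjusted p = 0.722 and 0.379). Bcl11a, a transcription factor of B cells and progenitors, stood at -0.17 (adjusted p = 0.177).

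Other remodellers were counted in the same way. Of 19 ISWI and INO80 family genes 1 rose and 3 fell, with a median log2 fold change of -0.08. Of 15 genes of NuRD, the complex that joins remodelling to histone deacetylation, 1 rose and 2 fell, with a median of 0.10. So 4 of 19 and 3 of 15 were called, against 17.9% of all tested genes. Of the 4522 genes at least as abundant as the least abundant SWI/SNF member 24.9% were called. Whether these lists differed from those shares was not tested. The ISWI subunit gene Bptf was at 3.69, 3.84 and 3.42 FPKM in the floxed and 2.48, 2.92 and 2.36 FPKM in the Vav1-Cre libraries (log2 fold change -0.50, edgeR adjusted p = 0.00467). Baz2a and Baz2b fell as well (-0.35 and -0.32), and Cecr2 rose (1.83, adjusted p = 0.0294). In NuRD the ATPase genes Chd3 and Chd4 fell (-0.34 and -0.26, adjusted p = 0.0107 and 0.0217) and Mbd2, a methyl-DNA binding subunit, rose (0.32, adjusted p = 0.00722). The counts were 1 for ISWI and INO80 without floxed 1, floxed 2 or Vav1-Cre 2 and 2 without Vav1-Cre 1. For NuRD they were 1 without floxed 1 or Vav1-Cre 1 and 7 without Vav1-Cre 3. With an offset for gene length in each library, the calls were 2 higher and 1 lower in both lists, with medians of 0.02 and 0.07. Baz2a (-0.22, adjusted p = 0.0893), Baz2b (-0.13, 0.338) and Chd4 (-0.16, 0.135) then did not pass. Whether the SWI/SNF members were called more often than these lists was not tested.

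Markers of mature cells moved with the groups, and their values are given for comparison with the members. The summed CPM of 12 B cell markers was 495.3, 327.9 and 777.4 in the floxed and 2939, 2873 and 1449 in the Vav1-Cre libraries, and 7 of 11 tested rose, among them Blk and Fcrla. For 10 plasma cell markers the sums were 544.8, 375.1 and 956.7 against 4602, 4787 and 2144, with 6 rising, among them Eaf2 and Xbp1. For 12 macrophage markers they were 533.5, 298.2 and 602.7 against 2657, 2030 and 1287, with 6 rising, among them Cd68 and Slc40a1. In each of these lists every floxed library was below every Vav1-Cre library, and Vav1-Cre 3 was the lowest of the Vav1-Cre libraries. Vav1-Cre 3 was also the lowest of them for Smarca4, Smarcd2, Bcl7a, Smarce1 and Actl6a. Other called subunits differed, with Actb highest in Vav1-Cre 3 and Bcl11b lowest in Vav1-Cre 2. Of the members called lower, Smarca2 and Arid2 were nearest to the floxed libraries in Vav1-Cre 3. Arid1a stood at 7.39 FPKM in Vav1-Cre 2 and in Vav1-Cre 3. No B cell, plasma cell or macrophage marker had 0 counts throughout the floxed libraries. In bulk RNA a different number of cells of a type and a different amount of RNA per cell cannot be told apart. The part of these cells in the members' differences was not tested.

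No other marker list rose in that order of libraries. For erythroid markers, and for T and NK cell markers without Nkg7, every floxed library was below every Vav1-Cre library. In these, Vav1-Cre 2 was the lowest Vav1-Cre library. Stem cell and gate markers showed the reverse order. Among 12 T and NK cell markers 9 rose, led by Cd3g, and Nkg7 fell, and the summed CPM was 141.9 to 176.3 in the Vav1-Cre and 179.7 to 195.7 in the floxed libraries. Nkg7 made up most of that sum, and without it the other 11 markers summed to 34.1, 30.6 and 38.7 CPM in the floxed and 80.7, 66.9 and 74.7 CPM in the Vav1-Cre libraries. Of 11 tested erythroid markers 3 rose, among them Alas2 and Hba-a2, and the sums were 867.8 to 1242 CPM in the floxed and 1908 to 3230 CPM in the Vav1-Cre libraries. Of 12 neutrophil markers edgeR called 0 (also 0 at an unadjusted p under 0.05), and DESeq2 and limma-voom called 0 as well (2 and 3 at an unadjusted p under 0.05). Prtn3 and Mpo had the smallest p-values. Their summed CPM overlapped, at 18987 to 31742 and 14351 to 37390. Of 7 tested megakaryocyte markers Gp9 fell, and Gp1bb had 0 counts in every library. Of 10 stem cell and gate markers 7 fell, Procr and Kit among them, and 1, Ly6a, rose. Their summed CPM was 1684, 1733 and 1659 in the floxed and 1226, 1320 and 1389 in the Vav1-Cre libraries. Every floxed library was above every Vav1-Cre library, and Vav1-Cre 3 was nearest to the floxed ones.

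Gene length also moved with the groups. Over all tested genes the median log2 fold change went from 0.20 in the shortest to -0.13 in the longest of 10 equally filled bins of merged exon length. Arid1a, Arid1b, Arid2 and Smarca2, with exon lengths of 11476, 12600, 10737 and 14269 bases, all lie in the longest bin, where 16.2% of genes fell and 3.84% rose. Arid1a and Smarca2 were further below 0 than the median of that bin, while Smarca4, in the bin from 5731 to 7032 bases with a median of -0.08, lay on the other side of 0. With an offset for gene length in each library, Arid1a stood at -0.31 (edgeR adjusted p = 0.00674), Smarca2 at -0.25 (0.0397) and Smarca4 at 0.59 (0.00410). With the same offset Arid2 did not pass (-0.16, adjusted p = 0.240), and Smarcb1 passed (0.29, adjusted p = 0.0225). The members called were then 3 higher and 2 lower. Their median log2 fold change was 0.02 with the offset, against 0.01 over all tested genes.

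**Figure D4:**
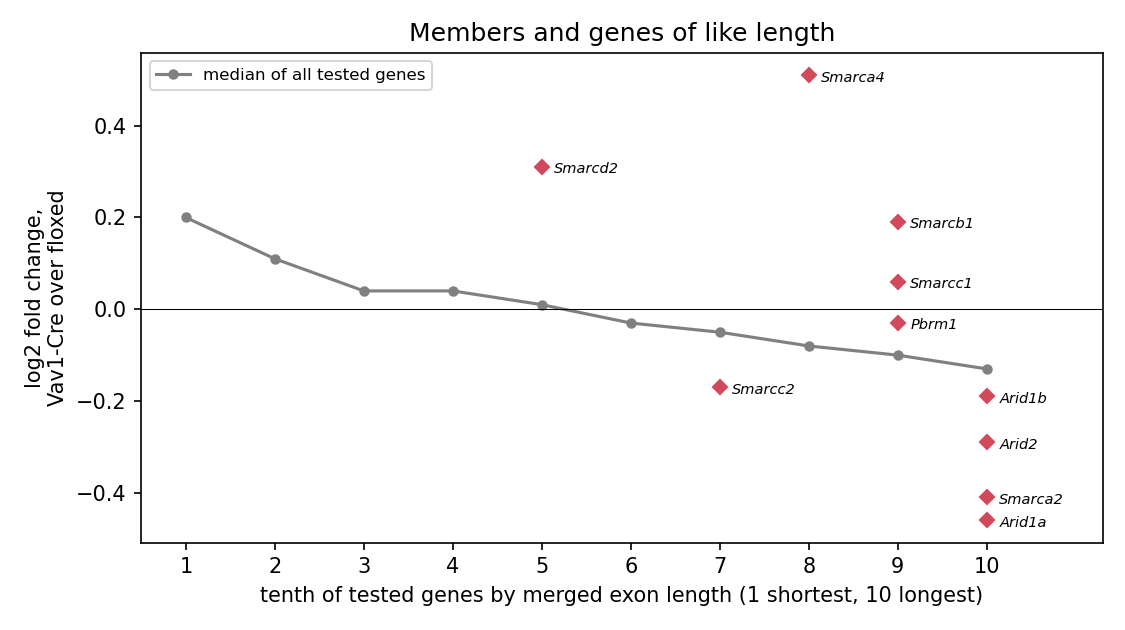
Log2 fold change (Vav1-Cre over floxed) against 10 equally filled bins of tested genes by merged exon length. The grey line gives the median of all tested genes, from 0.20 to -0.13, and red diamonds give the members, of which 4 lie in the longest bin and below its median.

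The 3 members with the largest changes kept their calls when any library was left out. The log2 fold change ran from -0.49 to -0.42 for Arid1a, from -0.47 to -0.38 for Smarca2 and from 0.43 to 0.62 for Smarca4, with edgeR adjusted p-values of at most 0.01, 0.0283 and 0.0354. Without any one of floxed 1 to 3, Vav1-Cre 1 or Vav1-Cre 2 these 3 were the called members, and without Vav1-Cre 3 there were 5. Upper-quartile scaling turned the division of all calls (56.0% higher with TMM, 45.9% with upper-quartile) and gave 1 member higher, Smarca4, and 4 lower, Arid1b being added. With immunoglobulin genes removed before scaling the members' counts were 2 higher and 3 lower, as with them.

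**Figure D5:**
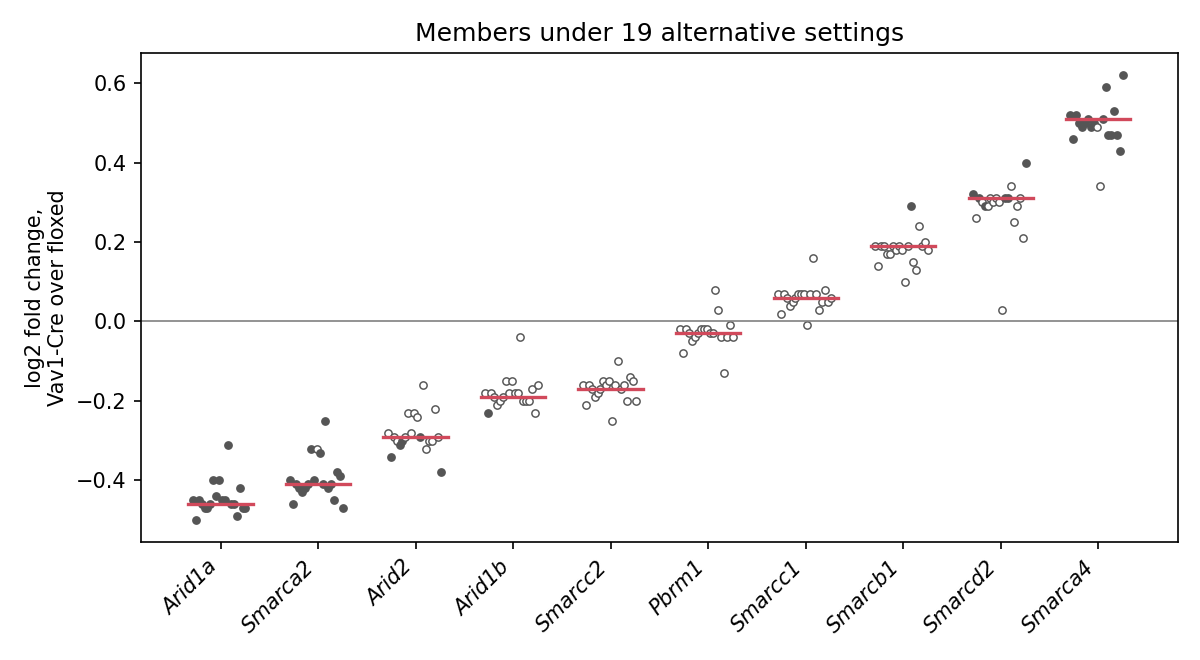
Log2 fold change (Vav1-Cre over floxed) of each member under 19 alternative settings (grey points, filled where the adjusted p was under 0.05) beside the reported value (red line). Arid1a, Smarca2 and Smarca4 stay on 1 side of 0 throughout, as do Arid2 and Smarcd2 with few filled points, while Pbrm1 and Smarcc1 cross 0.

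Among 6334 other protein-coding genes with a mean of at least 5 FPKM, the levels most like those of Arid1a over the 6 libraries were those of Rnf220, Numa1 and Cbfa2t3. Pearson's r of log2(FPKM + 1) was 0.9992, 0.9990 and 0.9963. The 6 points fall into the floxed and Vav1-Cre groups and share the scaling of their library. Rnf220, an E3 ubiquitin ligase gene, went from 17.7 ± 0.0992 to 15.3 ± 0.351 FPKM, Numa1, a spindle pole gene, from 21.5 ± 0.577 to 16.3 ± 0.689 FPKM, and Cbfa2t3, a transcriptional corepressor gene, from 7.96 ± 0.383 to 4.36 ± 0.497 FPKM (SD, n = 3 each).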

How the data were processed

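RNA of 6 libraries was analysed, 3 floxed and 3 Vav1-Cre, grouped by the genotype labels. Per the file headers, the deposited files list 54532 Ensembl genes with 2 values each, the read count and the FPKM. The submitters' processing notes name Bowtie and mm8. The sources used here do not say how reads were counted, or whether by strand. The identifiers matched GENCODE M21 of GRCm38 for 54409 genes. Lengths implied by count and FPKM matched the merged exons of M21 to within 0.01% in 94.4% to 94.6% of genes (those above 200 counts), so coordinates are those of GRCm38. The library sizes behind the FPKM values were median-ratio size factors, so FPKM is already scaled between libraries. No pair of replicates agreed within sampling noise (chi-square per gene at least 12.2).

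Counts were tested with edgeR 4.0.16 (R 4.3.3; quasi-likelihood test, TMM, default filter with a minimum count of 10, robust option), with Benjamini-Hochberg adjustment over 14608 genes. Shares of paralogs came from FPKM, with exact permutation tests over libraries. Members' exons overlapped those of other genes by at most 1.6% of their length. Alternatives were DESeq2 1.42.0, limma 3.58.1 (voom, and log2 of FPKM plus 1 or 0.1), other scalings and filters, and leaving out each library. The members and gene lists were chosen with earlier results of these data known. Named genes were the members, Phf6, other subunits that passed, up to 4 genes per comparison list, up to 2 per marker list with Kit and Ly6a, and 3 genes most like the member with the smallest p. The motifs, the 3 upstream sequences, the subunits named without a call and the T cell markers set beside Bcl11b were chosen after values were seen. More than 2 genes of the T and NK cell list are therefore named. Of 155 listed genes 1, Ahsp, was not matched. Counts have no molecular identifiers, and depth was 15406314 to 18106065 counts per library.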

Additional observations from a re-analysis of the deposited data

How the results depend on the processing

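No paired analysis was possible because the labels give the groups no shared replicate numbers, and the numbers 1 to 3 used here only name the libraries of a group. The 19 alternatives gave 190 member results, of which 156 had the same direction and side of the threshold, 29 lost the call, 2 gained it and 3 changed sign. The sign changes were Pbrm1 with the length offset (0.08) and without floxed 1 (0.03, with -0.13 to 0.03 over the libraries left out), and Smarcc1 under quantile normalization of FPKM (-0.01). Under that normalization genes outside the members changed sign too, among them Actb (-0.12) and Hdac1 (-0.01). The median log2 fold change of the NuRD genes was then -0.14, against 0.10 in edgeR's test. Members called were 3 with limma-voom, without the robust option and with limma on log2 of FPKM plus 1 or 0.1, 1 with no filter on FPKM and 2 with quantile normalization, and 3 to 5 when a library was left out. Smarca2 and Smarca4 missed the threshold with no filter on FPKM (adjusted p = 0.0744 and 0.0798), and Smarca4 with quantile normalization (0.34, 0.0699). Other subunits called were 2 with upper-quartile scaling, 3 with limma-voom, 3 with a mean count of at least 50, 2 without the robust option, 0 under each of the 4 limma settings on FPKM (2 to 5 at an unadjusted p under 0.05) and 0 to 4 without a library. ISWI and INO80 genes called were 0 with no filter on FPKM and 1 to 6 without a library. NuRD genes called were 1 with no filter on FPKM, 5 with quantile normalization (all lower) and 1 to 7 without a library. Over all genes 1581 and 1548 were called with limma on log2 of FPKM plus 1 and plus 0.1, 611 with no filter on FPKM and 1218 to 3295 without a library, and quantile normalization made 37.6% of calls higher. Shares from CPM, not per length, changed by -11.3 points for Smarca2 against -6.82 per length. Without 1 library the change was -7.91 to -6.21 points for Smarca2, 3.98 to 5.25 for Arid1b and -4.07 to -3.09 for Smarcc2. The causes were not tested.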
